A study of Homo sapiens with 4 samples.

Results

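The immune checkpoint ligands of tumour cells are surface or secreted proteins that restrain T cells, NK cells or macrophages when they meet a receptor on those cells. The set was fixed by name as 10 genes: CD274, PDCD1LG2, CD276, VTCN1, VSIR, LGALS9, PVR, NECTIN2, CD47 and NT5E. All 10 were found by symbol, each in 1 row, among 60766 features kept from the tables. RNA was sequenced from HCT116, an established human colon carcinoma line grown in RPMI1640 medium with serum, in 2 control libraries and 2 libraries with a short hairpin RNA knockdown of ARID1A, which belongs to a form of the SWI/SNF complex that remodels chromatin. The labels do not describe the hairpin, its vector or what the control cells carried, and they name no clone. Nothing in them states that the replicates came from separate cultures, so p-values measure the spread between these libraries, which may be technical. The study asked how ARID1A relates to immune functions.

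PD-L1 and PD-L2 bind PD-1 on T cells, and B7-H3, B7-H4 and VISTA are further members of the same B7 family. PVR and NECTIN2 are adhesion molecules of the nectin family that are read by the inhibitory receptor TIGIT and the activating receptor CD226 on T and NK cells. Galectin-9 is a lectin that binds TIM-3, CD47 gives macrophages a signal against engulfment through SIRPA, and CD73 makes immunosuppressive adenosine outside the cell. Interferon is the best known inducer of PD-L1 in epithelial tumour cells, acting through JAK kinases and IRF1.

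Expression was read as fragments scaled for transcript length and sequencing depth (FPKM). The spacing of low values gave library depths of about 69000000 to 75500000 fragments per library. Mitochondrially encoded transcripts made up 4.29% to 4.35% of all FPKM in control cells and 5.65% to 6.04% after knockdown, and their part in the ligand values was not tested. Scaling each library to its median gene changed the call of none of the 7 ligands tested at 1 FPKM. ARID1A was at 11.1 and 11.4 FPKM in control cells, against 7.05 and 6.13 after knockdown, a log2 change of -0.69. Of 10 colon epithelial markers, 7 were tested, of which 4 rose and 1 fell. That is a called share of 71.4%, against 37.1% of all tested genes. The keratin gene KRT20, a marker of differentiated intestinal cells, rose from 2.21 ± 0.289 to 13.9 ± 0.564 FPKM (SD, n = 2; limma adjusted p = 3.95e-04), and KRT8 rose by 0.70, KRT19 by 0.58 and KRT18 by 0.42 on the log2 scale. EPCAM fell from 312 ± 0.233 to 144 ± 4.27 FPKM (limma adjusted p = 3.63e-04). The intestinal transcription factor gene CDX2 was at 10.9 to 14.8 FPKM over the 4 libraries and did not pass, while CDX1, LGR5 and VIL1 were at most at 0.207. Of 13 leukocyte markers, 5 were at 0 in all libraries, among them CD3E and TYROBP, and the pan-leukocyte gene PTPRC reached 0.00592 FPKM in 1 library. The summed leukocyte markers were at 6.93 to 8.48 FPKM in control cells and 4.52 to 4.80 after knockdown, most of it CD68, a lysosomal gene. Fibroblast markers (6) summed to 3.77 to 5.01 FPKM in control cells and 6.15 to 6.43 after knockdown, most of it COL1A1. COL1A1 did not pass (limma adjusted p = 0.0518). COL1A2, DCN and LUM were at most at 0.0136 FPKM, COL3A1 at 0.191 and PDGFRB at 0.103. Endothelial markers (4) summed to 0.163 to 0.209 in all libraries. The part of fibroblast or endothelial RNA in the ligand values was not tested. Of these markers KRT20, KRT8, EPCAM, CD68 and COL1A1 follow the naming rule, and the others named were chosen after their values were seen. In a bulk sample, fewer cells of a type and less RNA per cell cannot be told apart.

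Ligands changed in both directions. On the FPKM scale the 10 genes summed to 204.5 and 204.4 in control cells, against 206.7 and 206.8 after knockdown. CD47 and VSIR rose, and PVR, LGALS9 and NT5E fell. CD276 and NECTIN2 did not pass the test. CD274, PDCD1LG2 and VTCN1 were below the mean of 1 FPKM that the fit required, so 7 of the 10 were tested and 5 were called. LGALS9 met that mean only through its control level. Across all 13605 tested genes 37.1% were called, with 18.2% that rose and 18.9% that fell. The 2 groups did not overlap for 64.8% of the 19259 genes with a mean of at least 0.1 FPKM. A call is a Benjamini-Hochberg adjusted p under 0.05 over all tested genes, from limma on log2(FPKM + 1), a scale that understates the change of low genes. The 7 log2 changes had a median of -0.04, against -0.003 over all tested genes. Their median size without sign was 0.45, against 0.18. For a single gene, an exact two-sided permutation test of 2 libraries against 2 cannot give a p below 0.333, so none is given beside the values.

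**Figure D1:**
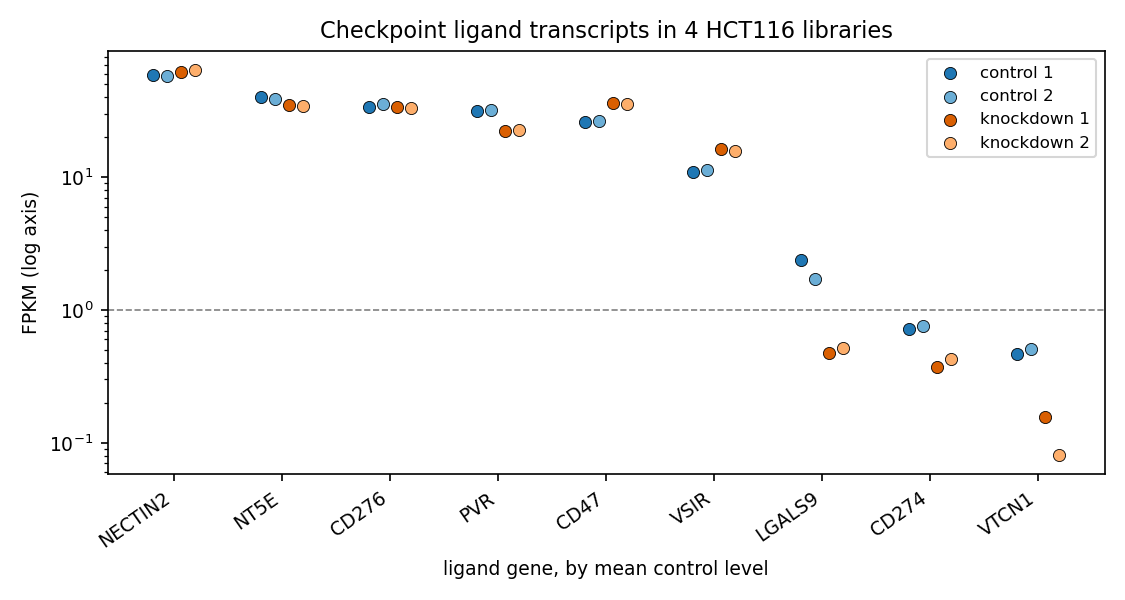
FPKM on a log axis for the 9 ligands above 0, 1 point per library, ordered by mean control level; the dashed line marks the filter of 1 FPKM. CD47 and VSIR lie higher in both knockdown libraries, PVR, NT5E, LGALS9, CD274 and VTCN1 lower, and the CD276 points overlap. PDCD1LG2, listed at 0 in all 4 libraries, is not drawn.

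Levels spanned a wide range. In the controls the order was NECTIN2, NT5E, CD276, PVR, CD47, VSIR, LGALS9, CD274, VTCN1 and PDCD1LG2, from a mean of 58.1 FPKM for NECTIN2 to 0 for PDCD1LG2. No neighbours in that order overlapped between the 2 control libraries, but CD276 was only 1.09-fold above PVR. In the knockdown the order was NECTIN2, CD47, NT5E, CD276, PVR and VSIR, with the lower 4 as before. CD47, NT5E and CD276 stood close together there, at means of 36.1, 34.7 and 33.6 FPKM, again without overlap of the 2 libraries. Among all tested genes, NECTIN2 had a mean above 87.3% of them, and VSIR above 53.6%. LGALS9 was above 3.59% of them. As shares of the ligands' summed FPKM, PVR went from 15.5% ± 0.23 to 10.8% ± 0.056 and CD47 from 12.8% ± 0.183 to 17.5% ± 0.174 (SD, n = 2).

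**Figure D2:**
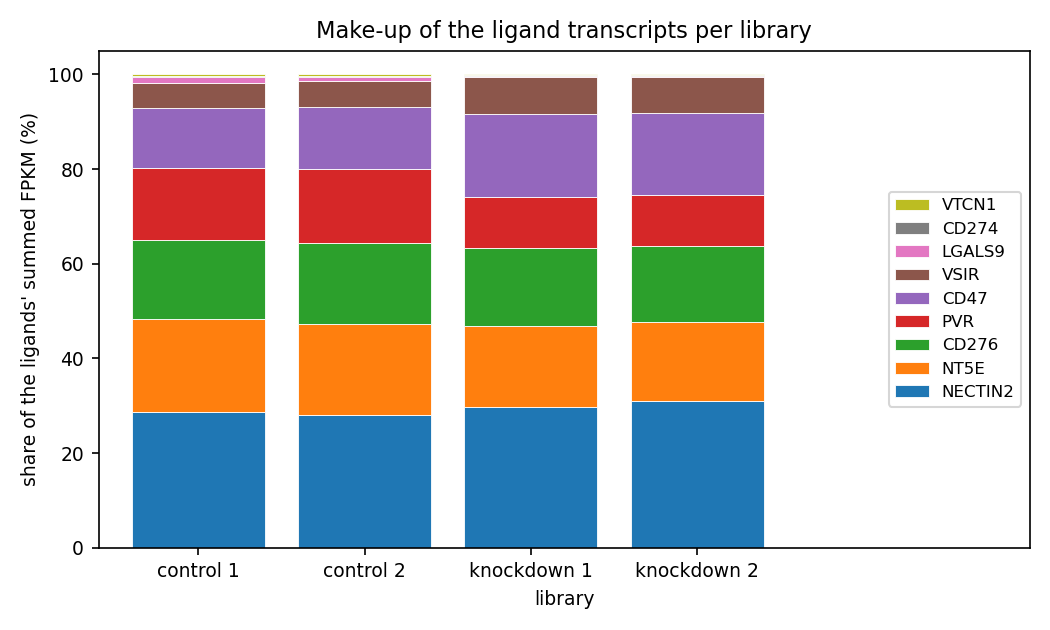
Share of each ligand in the summed FPKM of the set, in percent, 1 stacked bar per library. The CD47 and VSIR segments are wider in both knockdown bars and the PVR segment narrower, while CD276 keeps between 16.1% and 17.3%.

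The 2 ligands of PD-1 were low or listed at 0. CD274, which encodes PD-L1 on chromosome 9 (GRCh38, 5450503 to 5470566), was at 0.720 and 0.760 FPKM in control cells, against 0.371 and 0.429 after knockdown. Both control libraries were above both knockdown libraries. The mean went from 0.740 ± 0.0277 to 0.400 ± 0.0404 FPKM (SD, n = 2), 1.85-fold lower. CD274 was below the filter, and in a fit of genes with a mean of at least 0.1 FPKM its log2 change was -0.31 (95% interval -0.54 to -0.09) with a limma adjusted p of 0.0609. That p lay between 0.0609 and 0.168 over 10 fits at this or no filter, and CD274 passed in none of them. With a pseudocount of 0.1 the log2 change was -0.75. Over the longest annotated transcript of 3644 bases, these levels stand for about 166 and 181 fragments in control cells, against 94 and 108 after knockdown. Shorter transcripts would give fewer. PDCD1LG2, which encodes PD-L2 and starts 39.97 kb beyond CD274 on the same chromosome (5510531 to 5571282), was listed at 0 in all 4 libraries. The uncharacterised feature AL162253.2 overlaps both genes and was at 0.0981 to 0.128 FPKM in control cells and 0.0236 to 0.0623 after knockdown. Strand use in the counting is not given in the sources used here, so reads of overlapping features cannot be told apart.

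The promoters of CD274 and LGALS9 are shown because both genes had lower values in both knockdown libraries and both hold the core of an interferon-stimulated response element. The RefSeq table (GRCh38.p14) gave a promoter for 9 of the 10 genes, from 250 bases before to 50 after the annotated start, printed 5′ to 3′ on the gene's strand. Capitals mark matches on either strand to the core of the element bound by IRF factors (GAAA, 2 bases of any kind, then GAAA), and, in CD274 alone, to TTCNNNGAA, the gamma-activated site of interferon-responsive promoters. The CD274 window is chr9:5450292-5450591 on the plus strand, and that of LGALS9 is chr17:27630938-27631237, also on the plus strand.
CD274: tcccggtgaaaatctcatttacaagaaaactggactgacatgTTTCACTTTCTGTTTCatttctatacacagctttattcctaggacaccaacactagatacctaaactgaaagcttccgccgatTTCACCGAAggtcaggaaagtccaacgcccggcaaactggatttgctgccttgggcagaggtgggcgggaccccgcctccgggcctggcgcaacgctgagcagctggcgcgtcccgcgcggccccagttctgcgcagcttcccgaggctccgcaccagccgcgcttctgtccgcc
LGALS9: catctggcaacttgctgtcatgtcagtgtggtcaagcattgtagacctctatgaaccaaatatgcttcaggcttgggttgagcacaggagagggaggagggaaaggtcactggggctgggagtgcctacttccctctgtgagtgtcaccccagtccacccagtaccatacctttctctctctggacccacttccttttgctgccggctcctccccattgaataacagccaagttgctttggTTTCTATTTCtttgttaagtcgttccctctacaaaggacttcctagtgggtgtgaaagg
CD274 held 2 overlapping matches to that core, beginning 208 and 202 bases before the start, and 1 to TTCNNNGAA, beginning 125 bases before it. LGALS9 held 1 match to it, beginning 9 bases before the start. The LGALS9 window lies inside the locus listed for the gene (27629798 to 27649560), so the LGALS9 level may include transcripts that start elsewhere. Of all 35116 promoters of this length, 3.57% held the core and 7.66% held TTCNNNGAA. The other 7 ligands with a promoter held neither, and none of the 9 held a kappa-B-like sequence (GGG, 2 bases of any kind, then TTTCC), found in 1.91% of promoters. A match of letters is not evidence of binding.

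Regulators of PD-L1 transcription moved both ways. Of 20 such genes, all tested, 6 rose, 6 fell and 8 did not pass, with a median log2 change of -0.04, and 37.1% of all tested genes were called. SOCS1, a feedback inhibitor of JAK kinases, was at 2.08 and 2.09 FPKM in control cells, against 6.24 and 5.86 after knockdown, a log2 change of 1.19 (limma adjusted p = 0.00112). JUN, a component of AP-1, fell from 21.2 ± 0.354 to 9.20 ± 0.295 FPKM (SD, n = 2; limma adjusted p = 5.00e-04). The groups overlapped for neither gene, and did not overlap for 64.8% of all genes with a mean of at least 0.1 FPKM. IRF1, the interferon-induced factor that acts on the PD-L1 promoter, was at 18.4 and 18.0 FPKM in control cells, against 18.0 and 18.1 after knockdown (limma adjusted p = 0.871), a gene chosen after its values were seen. Its log2 change was -0.01. Other interferon signalling genes of the list did move. STAT2 had a log2 change of 0.45 (limma adjusted p = 0.00388) and IRF9 of 0.20 (0.0384). IFNGR1 had a log2 change of -0.17 (limma adjusted p = 0.0325), and IFNGR2, JAK1 and JAK2 did not pass. These genes too were chosen after their values were seen.

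Of 20 genes for the stability and glycosylation of the PD-L1 protein, all tested, 2 rose, 3 fell and 15 did not pass, with a median log2 change of 0.01. The called share was 25%, against 37.1% of all tested genes. CMTM6, a membrane protein that keeps PD-L1 on the cell surface, was at 112 and 113 FPKM in control cells, against 68.4 and 67.3 after knockdown. Its log2 change of -0.72 had a limma adjusted p of 5.53e-04. Its relative CMTM4, which can stand in for CMTM6 and was chosen after its values were seen, fell from 42.1 ± 0.453 to 33.1 ± 0.578 FPKM (SD, n = 2). CMTM3, of the same family, rose from 9.41 ± 0.221 to 14.4 ± 1.98 FPKM, and whether it acts on PD-L1 was not tested. MARCHF8, a ubiquitin ligase of membrane proteins, rose from 9.06 ± 0.271 to 12.8 ± 1.03 FPKM. The call of CMTM3 was lost without control replicate 1 (limma adjusted p = 0.0742) or 2 (0.0837) and with no filter (0.0721), and so was that of MARCHF8 (0.0583, 0.0698 and 0.0515). RNA levels do not show how much PD-L1 protein was on the surface.

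**Figure D3:**
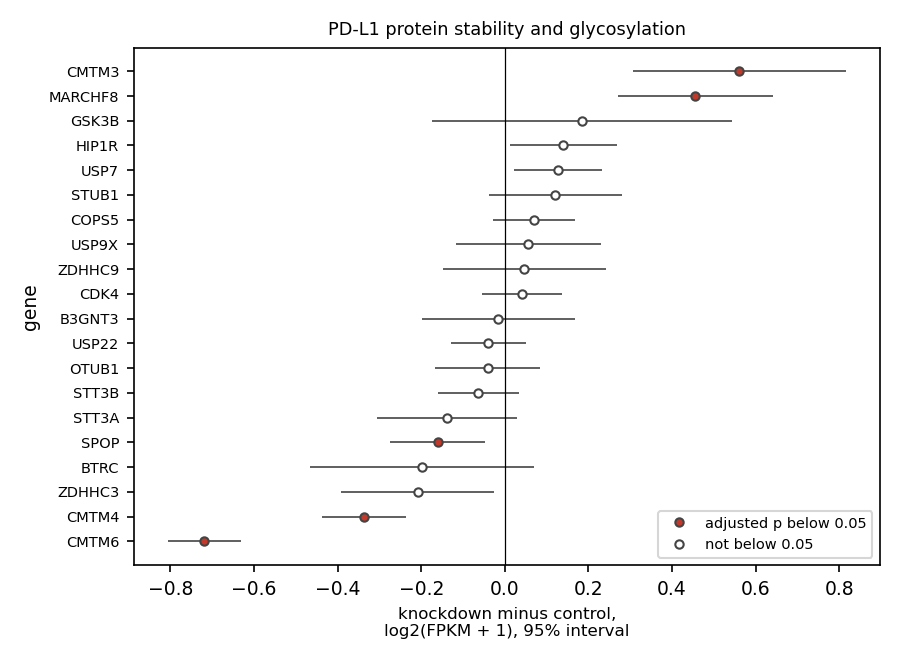
Log2 change of FPKM + 1, knockdown minus control, with 95% limma intervals for the 20 genes of PD-L1 protein stability and glycosylation, 1 point per gene; filled points passed the test. CMTM6 is lowest, at -0.72, and CMTM3 highest among those that passed, at 0.56.

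Among the other B7 ligands, VSIR rose, CD276 did not pass the test and VTCN1 was low. CD276 encodes B7-H3, which is widely expressed on carcinomas, and lies on chromosome 15 (73683966 to 73714514). It was at 33.9 and 35.3 FPKM in control cells, against 33.9 and 33.3 after knockdown. The groups overlapped, and the log2 change was -0.04 with a 95% interval of -0.15 to 0.07 (limma adjusted p = 0.477). CD276 was thus 46.8-fold above CD274 in the controls, on the FPKM scale, and 84.5-fold in the knockdown.

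VSIR, which encodes VISTA on chromosome 10 (71747556 to 71773520), was at 10.97 and 11.3 FPKM in control cells, against 16.3 and 15.7 after knockdown. Both knockdown libraries were above both controls. It rose 1.44-fold, from 11.1 ± 0.224 to 16.0 ± 0.403 FPKM (SD, n = 2), or by 0.49 on the log2 scale (SE 0.049; limma adjusted p = 0.00344). That change lay above 94.3% of all tested genes, and the call held without any 1 library (highest adjusted p = 0.0371). VSIR lies inside the locus of CDH23, a cadherin gene that was at most at 0.0467 FPKM. As a share of the 5 B7 ligands' FPKM, VSIR went from 23.7% ± 0.163 to 31.9% ± 0.248 and CD276 from 73.7% ± 0.117 to 67.1% ± 0.255.

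VTCN1, which encodes B7-H4 on chromosome 1 (117143587 to 117210960), was at 0.469 and 0.507 FPKM in control cells, against 0.156 and 0.0809 after knockdown. The groups did not overlap, and the mean was 4.12-fold lower in the knockdown. Over the longest transcript of 2719 bases, the knockdown values rest on about 28 and 15 fragments, against 78 and 88 in the controls. In the fit of genes with a mean of at least 0.1 FPKM, where 23.7% of 19259 genes were called, VTCN1 passed with a log2 change of -0.41 (95% interval -0.64 to -0.18; limma adjusted p = 0.0340). With a pseudocount of 0.1 its log2 change was -1.45. The call was lost in alternatives chosen after seeing the data: without control replicate 1 (limma adjusted p = 0.123) or 2 (0.133), knockdown replicate 1 (0.0857) or 2 (0.114), with the replicate block (0.0770) and with median scaling (0.0512). Of the 9 ligands with a mean of at least 0.1 FPKM, 8 had groups that did not overlap, and so did 64.8% of all genes at that level. The VTCN1 promoter, chr1:117210878-117211177 on the minus strand, is shown because it was the only ligand promoter with an AP-1 match, TGANTCA (in capitals), which 7.71% of all promoters held.
VTCN1: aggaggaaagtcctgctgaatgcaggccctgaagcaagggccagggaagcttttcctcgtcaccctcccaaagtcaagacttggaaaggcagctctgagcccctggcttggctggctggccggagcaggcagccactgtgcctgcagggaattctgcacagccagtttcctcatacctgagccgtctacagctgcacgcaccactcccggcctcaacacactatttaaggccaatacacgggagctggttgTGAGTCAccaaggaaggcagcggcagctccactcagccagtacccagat
The match begins at base 2, counted from the annotated start.

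The wider B7 and butyrophilin family gave 0 calls. Of 18 further genes, 8 were tested and 0 passed, with a median log2 change of -0.11, while 37.1% of all tested genes were called. BTN3A2, a butyrophilin with the highest mean of the list, was at 11.3 and 9.68 FPKM in control cells, against 9.58 and 9.39 after knockdown (limma adjusted p = 0.277). The classical co-stimulatory ligands CD80 and CD86, both chosen after their values were seen, were at most at 0.0121 FPKM in any library.

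**Figure D4:**
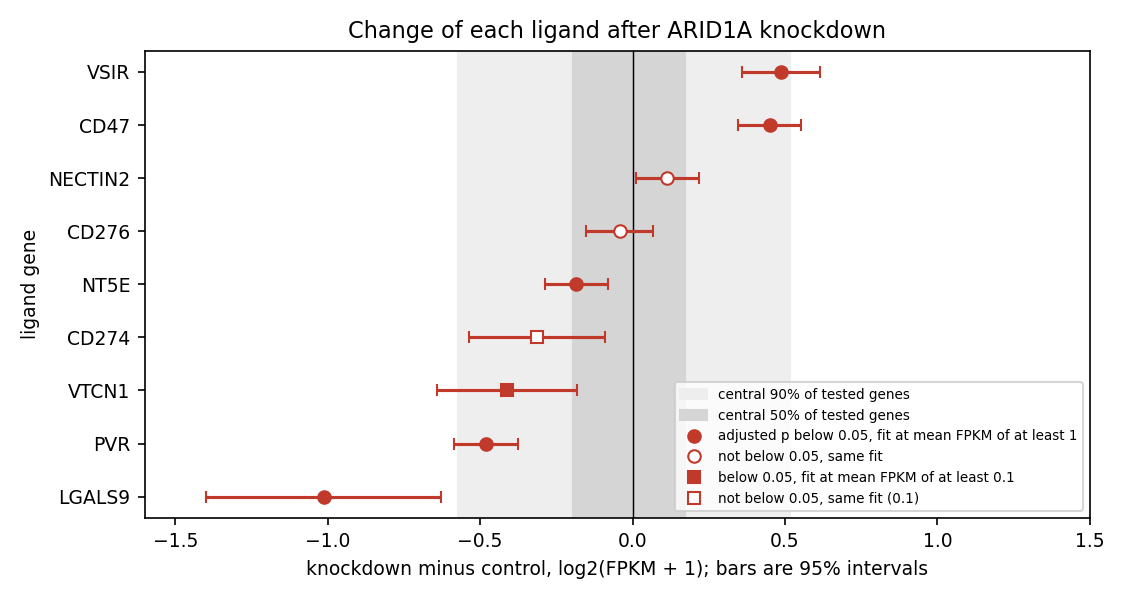
Log2 change of FPKM + 1, knockdown minus control, with 95% limma intervals, for the 9 ligands above 0. Circles come from the fit at a mean of at least 1 FPKM and squares from that at 0.1, and filled symbols passed. VSIR (0.49), CD47 (0.45), PVR (-0.48) and LGALS9 (-1.01) lie outside the central 50% of all tested genes, shaded dark, which spans -0.195 to 0.173, and so do CD274 and VTCN1.

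Of the 2 TIGIT ligands in the set, PVR fell and NECTIN2 did not pass the test; the difference between them was not tested. PVR, the poliovirus receptor CD155 on chromosome 19 (44643798 to 44666162), was at 31.3 and 32.0 FPKM in control cells, against 22.3 and 22.5 after knockdown. The groups were well apart. PVR fell from 31.6 ± 0.458 to 22.4 ± 0.118 FPKM (SD, n = 2), 1.41-fold lower, with a log2 change of -0.48 (SE 0.0398; limma adjusted p = 0.00213). The call held without any 1 library (highest adjusted p = 0.0304). Of the features that overlap PVR, CEACAM19 was the highest, at 1.56 to 2.21 FPKM.

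NECTIN2 (CD112) lies 180 kb further along chromosome 19 (44846175 to 44889223). It was at 58.8 and 57.4 FPKM in control cells, against 61.7 and 64.2 after knockdown. Both knockdown libraries were higher, but the log2 change of 0.11 (95% interval 0.01 to 0.22) did not pass over all tested genes (limma adjusted p = 0.0824). PVR made up 34.8% and 35.8% of the summed FPKM of this pair in control cells, against 26.6% and 25.95% after knockdown.

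Of 8 other nectins and nectin-like or associated molecules, 5 were tested, of which 2 rose, 0 fell and 3 did not pass, with a median log2 change of 0.11. Over all tested genes 37.1% were called, against 40% here. NECTIN3, an adhesion partner of NECTIN2 and PVR, was at 30.6 and 29.3 FPKM in control cells, against 68.9 and 64.9 after knockdown, a log2 change of 1.13 (limma adjusted p = 4.78e-04). NECTIN4, also a TIGIT ligand, was at 1.16 and 0.721 FPKM in control cells, against 3.28 and 2.57 after knockdown (log2 change 1.02; limma adjusted p = 0.0111). Its control mean was 0.941 FPKM, so it passed the filter only through its knockdown level, the group where it was higher. Its call was lost without control replicate 2 (limma adjusted p = 0.0536) and with no filter (0.0657). NECTIN1 did not pass (limma adjusted p = 0.377) and was chosen after its values were seen. With it added, PVR and the 4 nectins summed to 129 and 128 FPKM in control cells, against 164 and 163 after knockdown. NECTIN3 had the largest change in FPKM among them. PVR and NECTIN2 alone summed to 90.09 and 89.33 FPKM in control cells, against 84.03 and 86.65 after knockdown.

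LGALS9, which encodes galectin-9 on chromosome 17 (27629798 to 27649560), had the largest fall among the tested ligands. It was at 2.36 and 1.71 FPKM in control cells, against 0.476 and 0.514 after knockdown. The groups did not overlap, and the controls differed more from each other than the knockdown libraries did. It was 4.11-fold lower, at 2.04 ± 0.464 against 0.495 ± 0.0268 FPKM (SD, n = 2), which is -1.01 on the log2 scale (SE 0.148; limma adjusted p = 0.00862). With a pseudocount of 0.1 the log2 change was -1.83. LGALS9 passed the filter of 1 FPKM only through its control level, the group where it was higher. At a filter of 0.1 FPKM, which both groups reached, the limma adjusted p was 0.0109. With any 1 library left out, LGALS9 had a log2 change between -1.17 and -0.857, with the filter still taken over all 4 libraries. It has near-identical copies, LGALS9B and LGALS9C, which were at most at 0.00929 and 0.0958 FPKM, each in 1 library. How shared reads were divided is not given in the sources used here, so the LGALS9 level is uncertain to that extent.

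Of 14 other galectins, 5 were tested, of which 2 rose and 0 fell, with a median log2 change of 0.08. Calls made up 40% of those tested, against 37.1% of all tested genes. LGALS1, a secreted galectin that can kill activated T cells, was at 1088 and 1039 FPKM in control cells, against 1575 and 1890 after knockdown (log2 change 0.70; limma adjusted p = 0.00673). LGALS8 rose from 21.4 ± 0.0171 to 25.1 ± 1.86 FPKM (SD, n = 2). The call of LGALS1 was lost without control replicate 1 (limma adjusted p = 0.0529) or 2 (0.0613) and with no filter (0.0532). LGALS8, at a limma adjusted p of 0.04998, was lost in 8 of 13 alternatives. LGALS1 RNA was thus far above LGALS9 per length in every library.

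CD47, on chromosome 3 (108043091 to 108091862), was at 25.9 and 26.4 FPKM in control cells, against 36.3 and 35.8 after knockdown. Each knockdown library was above each control. CD47 rose 1.38-fold, from 26.2 ± 0.363 to 36.1 ± 0.355 FPKM (SD, n = 2), or by 0.45 on the log2 scale (SE 0.0391; limma adjusted p = 0.00234). The change lay above 93.4% of tested genes, and the call held without any 1 library (highest adjusted p = 0.0319). The promoters of CD47 (chr3:108090982-108091281, minus strand) and VSIR (chr10:71773471-71773770, minus strand) are shown as those of the 2 ligands that rose, with GC boxes, GGGCGG on either strand, in capitals.
CD47: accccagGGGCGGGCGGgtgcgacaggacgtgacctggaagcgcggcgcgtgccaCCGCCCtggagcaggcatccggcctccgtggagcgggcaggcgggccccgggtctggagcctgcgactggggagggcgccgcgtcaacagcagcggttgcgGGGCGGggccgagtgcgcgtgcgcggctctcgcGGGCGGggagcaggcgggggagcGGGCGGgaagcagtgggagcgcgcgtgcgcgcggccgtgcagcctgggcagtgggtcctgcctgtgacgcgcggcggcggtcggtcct
VSIR: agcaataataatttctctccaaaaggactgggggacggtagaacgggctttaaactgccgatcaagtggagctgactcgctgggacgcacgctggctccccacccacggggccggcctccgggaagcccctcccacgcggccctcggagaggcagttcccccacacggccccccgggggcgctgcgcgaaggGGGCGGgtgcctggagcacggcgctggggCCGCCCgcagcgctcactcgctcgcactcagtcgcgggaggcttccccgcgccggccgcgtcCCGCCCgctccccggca
CD47 held 6 GC boxes, 2 of them overlapping, and VSIR 3, and 44.95% of all promoters held at least 1. The windows were 79.0% and 72.0% G and C, with 45 and 35 CpG dinucleotides, against a median of 58.7% and 14 over all promoters. NT5E, which fell, had 37 CpG dinucleotides, and CD276 had a GC share of 80.3% and 76.0% in its 2 windows. LGALS9 stood at the low end, with 50.7% and 2 CpG dinucleotides.

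Of 8 genes for phagocytosis signals around CD47, 4 were tested, 1 rose and 1 fell, with a median log2 change of 0.06. This called share of 50% rests on 4 genes and stands beside 37.1% of all tested genes. CALR encodes calreticulin, a signal for engulfment when it is on the surface. It was at 330 and 321 FPKM in control cells, against 394 and 402 after knockdown (log2 change 0.29; limma adjusted p = 0.00531), and its call was lost without control replicate 2 (0.0575). QPCTL, the enzyme that modifies CD47 so that SIRPA can bind it, went from 11.3 ± 0.514 to 8.86 ± 0.105 FPKM (SD, n = 2; limma adjusted p = 0.0149). That call was lost without control replicate 1 (limma adjusted p = 0.0546) or 2 (0.0820), knockdown replicate 1 (0.0654) or 2 (0.0621), and with no filter (0.0506). CD47 and QPCTL thus had changes of opposite sign.

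NT5E, which encodes the ectoenzyme CD73 on chromosome 6 (85449584 to 85495791), was at 40.1 and 39.1 FPKM in control cells, against 35.2 and 34.3 after knockdown. The groups did not overlap, but the difference was small. NT5E fell from 39.6 ± 0.707 to 34.7 ± 0.628 FPKM (SD, n = 2), 1.14-fold lower, with a log2 change of -0.18 (95% interval -0.29 to -0.08; limma adjusted p = 0.0242). The call was lost without control replicate 1 (limma adjusted p = 0.124) or 2 (0.0925), knockdown replicate 1 (0.0584) or 2 (0.0851), with no filter (0.0504) and without a trend in the prior (0.0510).

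Genes that make, break down, carry or sense extracellular ATP and adenosine moved both ways. Of 19, 13 were tested, 3 rose, 4 fell and 6 did not pass, with a median log2 change of -0.03. Of those tested 53.85% were called, against 37.1% of all tested genes. ENTPD2, an ectoenzyme that removes phosphate from ATP upstream of CD73, fell from 12.3 ± 0.46 to 8.88 ± 0.291 FPKM (SD, n = 2; limma adjusted p = 0.00663). The adenosine deaminase gene ADA rose from 13.7 ± 0.141 to 18.1 ± 0.462 FPKM (limma adjusted p = 0.00550). DPP4, which anchors adenosine deaminase at the surface, went from 3.29 ± 0.290 to 2.09 ± 0.119 FPKM (limma adjusted p = 0.0198). The groups did not overlap for any of these 3 genes, nor for 64.8% of all genes with a mean of at least 0.1 FPKM. The call of ENTPD2 was lost without control replicate 2 (limma adjusted p = 0.0525). That of DPP4 was lost without control replicate 1 (0.0912) or 2 (0.0586), knockdown replicate 1 (0.0745) or 2 (0.0579), and with no filter (0.0868).

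Inhibitory molecules outside the set were mostly low. Of 16 such ligands and enzymes, 4 were tested, and 3 of them fell, while 37.1% of all tested genes were called. CEACAM1, which binds itself and TIM-3, went from 2.50 ± 0.247 to 1.49 ± 0.318 FPKM (SD, n = 2; limma adjusted p = 0.0409), TGFB1 from 34.4 ± 0.0632 to 27.1 ± 0.921 (0.00642) and HLA-E, a ligand of NKG2A on NK cells, from 111 ± 0.68 to 102 ± 0.8 (0.0386). Each call was lost without control replicate 1 or 2, with limma adjusted p-values of 0.102 and 0.163 for CEACAM1, 0.0532 and 0.0541 for TGFB1, and 0.147 and 0.175 for HLA-E. Those of CEACAM1 and HLA-E were also lost without knockdown replicate 2 (0.116 and 0.0792), and that of HLA-E without knockdown replicate 1 (0.0984). With the replicate block both were lost (0.0724 and 0.0849), and with no filter (0.144 and 0.0538). CEACAM1 was lost too with a filter of 0.1 FPKM (0.0546) or quantile normalization (0.0608), and HLA-E without a trend in the prior (0.0995).

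Of 10 co-stimulatory and adhesion ligands, 8 were tested, 1 rose and 2 fell, with a median log2 change of -0.12. The called share of 37.5% was near the 37.1% of all tested genes. TNFSF9, the ligand of 4-1BB, which activates T cells, was at 36.2 and 34.3 FPKM in control cells, against 54.97 and 54.2 after knockdown (log2 change 0.62; limma adjusted p = 0.00143). The adhesion molecule gene ICAM1 fell from 5.98 ± 0.485 to 2.78 ± 0.293 FPKM (SD, n = 2) and CD58, the ligand of CD2, from 31.6 ± 0.0135 to 26.9 ± 0.461. The groups did not overlap for any of these 3 genes, nor for 64.8% of all genes with a mean of at least 0.1 FPKM. The call of CD58 was lost without control replicate 1 (limma adjusted p = 0.0802) or 2 (0.0816) or knockdown replicate 2 (0.0566).

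**Figure D5:**
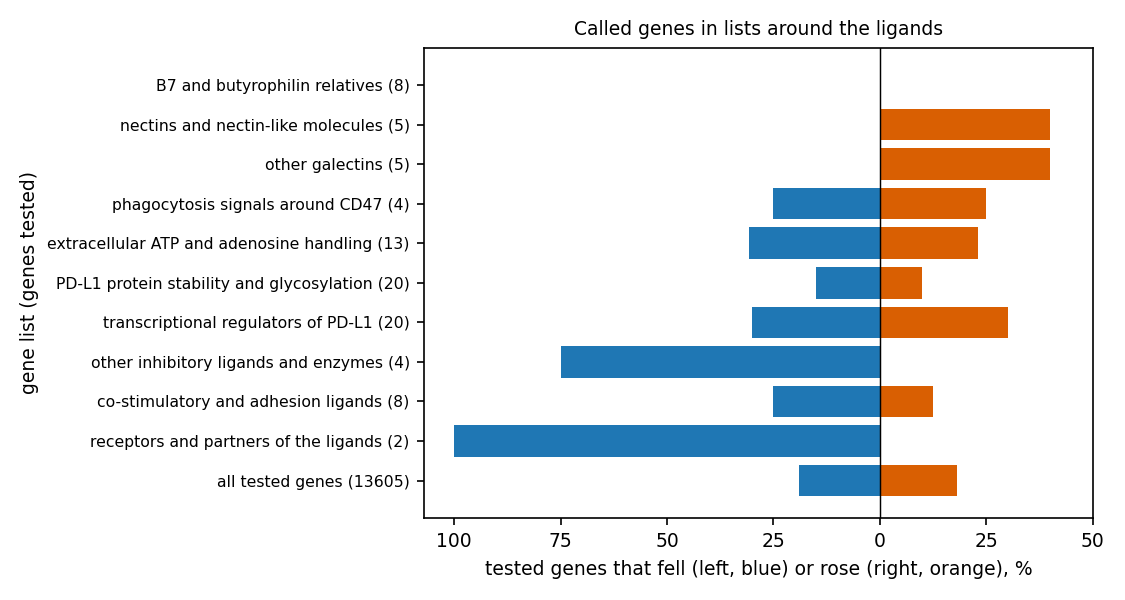
Share of the tested genes of each list that rose (right) or fell (left), in percent, with the number tested in brackets and all tested genes as the lowest bar. Several lists hold few tested genes, so their bars rest on 2 to 5 genes; the 2 lists of 20 genes have genes called on both sides.

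Neighbouring genes were read beside the ligands. Taking the nearest tested gene on each side that does not overlap the ligand gave 18 genes, of which 2 rose, 4 fell and 12 did not pass, with a median log2 change of -0.08. Over all tested genes 37.1% were called, with 18.2% that rose and 18.9% that fell. Beside VSIR, which rose, both neighbours fell: PSAP from 481 ± 5.16 to 404 ± 0.347 FPKM and SLC29A3 from 5.39 ± 0.147 to 3.86 ± 0.216 (SD, n = 2). Beside CD47, IFT57, 68.95 kb away, rose from 17.4 ± 0.824 to 27.5 ± 1.4 FPKM (log2 change 0.63; limma adjusted p = 0.00287), and BBX on the other side did not pass (0.402). Beside PVR, BCL3 went from 18.2 ± 0.294 to 15.2 ± 0.335 FPKM (0.0168), and ZNF180 did not pass (0.803). Beside LGALS9, KSR1 had a log2 change of -0.41 (0.04715), and LYRM9 did not pass (0.190). The neighbours of NT5E, TBX18 and SNX14, did not pass (0.429 and 0.882). RIC1, the other called neighbour, lies beyond PDCD1LG2 and was chosen after its values were seen. Of these 6 calls, that of IFT57 alone held without any 1 library.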

How the data were processed

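RNA-seq libraries of 2 control and 2 ARID1A knockdown samples of HCT116 were prepared from total RNA (NEBNext Ultra RNA), per the labels' protocols. Each library has its own deposited table, in which the authors give FPKM, per the file headers. STAR, Cufflinks and GRCh38 are named in the submitters' processing notes; their versions, the annotation release and strand use were not found in these sources.

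Each table held 60811 rows. Second copies of pseudoautosomal genes (45) were dropped and 2347 values under 1e-09 set to 0, leaving 60766 features. Starts are 1-based.

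Knockdown minus control was fitted on log2(FPKM + 1) for genes with a mean of at least 1 FPKM, with limma 3.58.1 in R 4.3.3 (eBayes with a trend). No count model was applied to FPKM. Depth was estimated from genes with 1 transcript in GENCODE release 29: 77.9% to 80.0% of values up to 8 fragments were whole within 0.1, against 19.6% to 21.0% after scrambling. Replicates differed beyond sampling noise (chi-square per degree of freedom 3.95 and 4.26).

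The members and lists were chosen with earlier results of these data known. Named were all members, ARID1A, up to 3 called genes per list by size of change (otherwise the highest), and neighbours of called members; other genes, besides overlapping genes and near-identical copies, are marked as picked with their values known, and 1 gene that the rule names is not reported here. Alternatives were other pseudocounts, filters, scalings and priors, each library left out, and a replicate block.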

Additional observations from a re-analysis of the deposited data

How the results depend on the processing

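The 5 called ligands kept their direction in each of the 13 alternatives that tested them, and LGALS9 was not tested at a filter of 5 FPKM. CD47, VSIR, PVR and LGALS9 passed in each of those fits, and NT5E was lost in 6. The number of called ligands was 4 when any 1 library was left out, and 6 with a filter of 0.1 FPKM. Over all tested genes, 5046 calls became 2786 with no filter, and 1900 to 3259 when 1 library was left out. In the lists around the ligands, 38 calls became 23 with no filter and 12 to 26 when 1 library was left out. Of the neighbours, 6 calls became 3 with no filter and 1 to 4 when 1 library was left out. The replicate numbers share no stated source, and their deviations correlated at -0.01 over genes. With the replicate block 4126 genes, 5 ligands, 29 list genes and 5 neighbours were called. CD274, VTCN1 and PDCD1LG2 were below the filter of 1 FPKM, and the part of depth in this was not tested.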

Other observations

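Receptors of the ligands were nearly all below the filter. Of 19 receptor and partner genes, 2 were tested and both fell, while 37.1% of all tested genes were called. SIRPA, the receptor of CD47, was at 12.3 and 12.7 FPKM in control cells, against 9.18 and 9.13 after knockdown (log2 change -0.41; limma adjusted p = 0.00526). RGMB, a partner of PD-L2, went from 8.40 ± 0.461 to 5.92 ± 0.186 FPKM (SD, n = 2; limma adjusted p = 0.00922), and its call was lost without control replicate 2 (0.0608). The T cell receptor genes PDCD1 and TIGIT, chosen after their values were seen, were at most at 0.0756 and 0.0492 FPKM.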
